A study of Mus musculus with 18 samples.

Results

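T-box genes encode transcription factors that share a DNA-binding domain, the T-box. The genes described here are Tbx2, Tbx3, Tbx4, Tbx5, Tbx15 and Tbx18, which are 6 of the 55450 gene identifiers in the count table. They were picked by name because Tbx2 was higher and Tbx4 lower in the knockout cells than in the control cells, so the knockout values of these genes against the control are given as a description, without a test. Other tests of Tbx2 use some of the same libraries, so its p-values are not independent of this choice. Of the 6 genes, 5 passed a filter on low counts. Tbx5, with 12 counts over all 18 libraries, did not pass, and Tbx4 passed only through the control myotubes, so all Tbx4 values are given as a description too.

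The 6 genes form 3 pairs of close relatives. TBX2 and TBX3 act mainly as repressors and are known for holding back the cell cycle inhibitor genes Cdkn1a and Cdkn2a. TBX4 and TBX5 act mainly as activators of limb outgrowth, TBX4 in the hindlimb and TBX5 in the forelimb and heart, and both are known to switch on the growth factor gene Fgf10. TBX15 and TBX18 can recruit Groucho (TLE) corepressors. TBX15 is known from skeletal development and from fast muscle fibres, and TBX18 from somite borders, the epicardium and the sinus node of the heart.

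The libraries are polyA RNA-seq of C2C12, an established line of mouse myoblasts whose cells fuse into myotubes once serum is lowered. Every line had been transfected and sorted for EGFP. The control line received the pX458 vector alone and was kept as a sorted population, whereas the cells labelled Dlk1-Dio3 overexpressor and Dlk1-Dio3 knockout received CRISPR-Cas9 constructs with pairs of guides against the promoter region of Meg3, a noncoding RNA of the imprinted Dlk1-Dio3 locus. Each mutant line is described as grown from a single cell, so genotype and clone cannot be told apart. Myoblasts of each line were taken from growth medium with 10% fetal bovine serum, and myotubes on day 3 in medium with 2% horse serum. This gave 6 groups of 3 libraries, called A, B and C. Nothing states that A to C were separate cultures, so p-values measure only the spread between these libraries, which may be technical.

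Libraries held 41544358 to 79140702 counts. Overexpressor libraries held 5222 to 7763 Meg3 counts, against 0 in every control and knockout library, so it did not separate the knockout line from the control and that identity rests on the label. All 5 myoblast and all 5 myotube marker genes were above 3 counts in some library of every group. The summed myotube markers (Myog, Myh3, Ckm, Actc1 and Mymk) came to 232 to 328 CPM (counts scaled to library size) for control myoblasts, 330 to 516 for overexpressor myoblasts and 6668 to 8354 for knockout myoblasts. The myotubes of these lines had sums of 9106 to 9739, 12676 to 13612 and 19347 to 21915 CPM. The knockout myoblasts therefore already carried these markers in growth medium. Their part in the T-box values was not tested. In bulk RNA, fewer cells of a type and less RNA per cell cannot be told apart.

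What the genes share at the sequence level is the coding stretch of the T-box, compared here for Tbx2, Tbx3, Tbx4, Tbx15 and Tbx18. A stretch of 60 coding bases, among those most alike in these 5 genes, is shown because it makes the family visible and shows where relatives differ. The sequences come from GENCODE vM21 transcripts on GRCm38, are written 5′ to 3′ on the gene's own strand, and have the 38 bases that are identical in all 5 genes in capitals.
Tbx2: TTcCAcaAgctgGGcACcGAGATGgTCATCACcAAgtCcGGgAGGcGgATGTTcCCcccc
Tbx3: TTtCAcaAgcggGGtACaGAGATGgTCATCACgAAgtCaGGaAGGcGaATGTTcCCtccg
Tbx4: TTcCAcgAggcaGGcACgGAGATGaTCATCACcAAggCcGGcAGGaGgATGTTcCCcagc
Tbx15: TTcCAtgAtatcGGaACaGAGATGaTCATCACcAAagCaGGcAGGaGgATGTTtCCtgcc
Tbx18: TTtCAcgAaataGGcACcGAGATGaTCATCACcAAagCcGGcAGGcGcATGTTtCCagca

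An exon junction falls after base 44 of this stretch in each of the 5 genes. It joins exons 1 and 2 in Tbx2 and Tbx3, exons 3 and 4 in Tbx4, and exons 2 and 3 in Tbx15 and Tbx18. The stretches span chr11:85833458-85834635 in Tbx2, chr5:119672361-119674041 in Tbx3, chr11:85890908-85898508 in Tbx4, chr3:99309000-99313028 in Tbx15 and, on the minus strand, chr9:87727450-87729504 in Tbx18. Over the aligned coding sequence, identity was 62.8% for Tbx2 and Tbx3 and 61.2% for Tbx15 and Tbx18. The other pairs of the 5 were 43.7% to 49.7% identical. The longest run shared by any pair of these transcripts was 23 bases.

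The genes also lie in pairs on the chromosome. Tbx2 (chr11:85832551-85841948) and Tbx4 (chr11:85886422-85916097) start 53871 bases apart on the plus strand. Tbx3 (chr5:119670669-119684724) and Tbx5 (chr5:119832668-119885219) start 161999 bases apart, also on the plus strand. Tbx15 (chr3:99240381-99354259, plus strand) and Tbx18 (chr9:87702800-87731260, minus strand) stand alone.

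Tbx2 was high in the knockout line at both stages and low in the other lines. Control myoblasts had 111, 85 and 89 counts, overexpressor myoblasts 52, 39 and 60, and knockout myoblasts 628, 628 and 630. Control myotubes had 23, 9 and 9 counts, overexpressor myotubes 50, 66 and 35, and knockout myotubes 675, 582 and 475. Every knockout library stood above every library of the other lines. Knockout myoblasts averaged 12.1 ± 1.27 CPM, against 1.90 ± 0.234 for control and 1.09 ± 0.276 for overexpressor myoblasts (SD, n = 3). Knockout myotubes averaged 10.4 ± 0.979 CPM, against 0.268 ± 0.147 for control and 0.685 ± 0.177 for overexpressor myotubes (SD, n = 3).

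The knockout line thus held 6.34-fold more Tbx2 than the control in myoblasts (log2 fold change 2.66, SE 0.21) and 38.3-fold more in myotubes (log2 fold change 5.26, SE 0.27), as a description of the genes chosen for this. The wider gap in myotubes came with the fall of Tbx2 in the control line, where differentiation lowered it 6.99-fold (log2 fold change -2.80, SE 0.28, edgeR adjusted p = 8.89e-08). In the knockout line Tbx2 changed by -0.21 on the log2 scale between the stages (SE 0.19, edgeR adjusted p = 0.329), with overlapping groups. The control and knockout libraries of these tests are those on which Tbx2 was chosen, so the p-values are not independent of that choice.

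Overexpressor cells moved Tbx2 in opposite directions at the 2 stages. It fell in myoblasts (log2 fold change -0.81, SE 0.23, edgeR adjusted p = 0.00974) and rose in myotubes (1.34, SE 0.31, edgeR adjusted p = 0.00105), with no overlap between the groups at either stage. Without overexpressor myoblast library B the first adjusted p was 0.0507. Within the overexpressor line, differentiation lowered Tbx2 by less than in the control (log2 fold change -0.66, SE 0.25, edgeR adjusted p = 0.0283). That call was lost without overexpressor myoblast library C (adjusted p = 0.163), without overexpressor myotube library C (0.149), with DESeq2 size factors (0.0526) and with only the groups compared in the fit (0.0831). The difference between the overexpressor and control responses was 2.15 on the log2 scale (SE 0.39, edgeR adjusted p = 0.000199). Where these tests use control libraries, they share them with the comparison on which Tbx2 was chosen.

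Tbx3, the relative of Tbx2, was low in the overexpressor line and at like levels in the other lines. Control myoblasts held 19.1, 20.9 and 19.9 CPM, overexpressor myoblasts 11.2, 11.6 and 9.31, and knockout myoblasts 20.3, 17.1 and 17.2. Control myotubes held 17.8, 16.2 and 15.3 CPM, overexpressor myotubes 9.73, 10.4 and 10.2, and knockout myotubes 15.8, 14.8 and 12.2. Control and knockout libraries overlapped at both stages, and the overexpressor libraries lay below them all. Tbx3 fell in the overexpressor by 0.90 on the log2 scale in myoblasts (SE 0.11, edgeR adjusted p = 1.85e-06) and by 0.70 in myotubes (SE 0.11, edgeR adjusted p = 1.81e-05).

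Between knockout and control, Tbx3 differed by -0.13 on the log2 scale in myoblasts (SE 0.11) and by -0.20 in myotubes (SE 0.11). Differentiation lowered it slightly in the control (log2 fold change -0.28, SE 0.11, edgeR adjusted p = 0.0276) and in the knockout (-0.35, SE 0.11, edgeR adjusted p = 0.00804). The control call was lost without either of control myoblast libraries B and C (adjusted p = 0.0917 and 0.0550) or control myotube libraries B and C (0.0708 and 0.106). The knockout call was lost with DESeq2 size factors (0.0688), under the DESeq2 Wald test (0.0675), without knockout myoblast library A (0.0551) and without knockout myotube library C (0.0557). In the overexpressor Tbx3 changed by -0.08 (SE 0.11, edgeR adjusted p = 0.538), and by 0.0036 with DESeq2 size factors.

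Tbx4 was a gene of the control myotubes. Its counts there were 67, 45 and 73, against 4, 1 and 7 in overexpressor myotubes and 9, 8 and 8 in knockout myotubes. Control myoblasts had 1, 7 and 8 counts, overexpressor myoblasts 0 in each library, and knockout myoblasts 3, 6 and 2. All 3 control myotube libraries stood far above the other 15, which held 0 to 9 counts each. A count of 3 per library is taken as the detection floor. Control myotubes averaged 1.21 ± 0.154 CPM, overexpressor myotubes 0.0564 ± 0.0424 and knockout myotubes 0.152 ± 0.0168 (SD, n = 3).

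Control myotubes held 11.03-fold more Tbx4 than control myoblasts (log2 fold change 3.46, SE 0.49). In the knockout line the stages differed by 1.09 on the log2 scale (SE 0.64). Knockout myotubes held 7.90-fold less Tbx4 than control myotubes (log2 fold change -2.98, SE 0.46), while in myoblasts the groups overlapped (-0.61, SE 0.69). Overexpressor and control myotubes differed by -4.40 on the log2 scale (SE 0.51). Because Tbx4 was chosen for its low knockout values and passed the filter only through the control myotubes, no test is given for these differences.

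The overexpressor myoblasts had no Tbx4 count. A count of 0 allows up to 3 counts per library, a mean of 0.0646 CPM, and this floor covers counting error only. Control myoblasts averaged 0.111 ± 0.0824 CPM (SD, n = 3), with library A under the floor, and overexpressor myotubes averaged 0.0564 CPM. No fold is given against the overexpressor myoblasts.

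A list of 5 fibroblast markers was also highest in control myotubes. Summed over Pdgfra, Thy1, Dcn, Col1a1 and Tcf21, it came to 5774 to 6833 CPM for control, 319 to 495 for overexpressor and 1363 to 1597 for knockout myotubes. In myoblasts it came to 788 to 839, 42.0 to 45.8 and 388 to 613 CPM in the same order of lines. In control myotubes nearly all of this was Col1a1, a collagen gene, with 6184 CPM. Thy1 reached at most 4 counts and Tcf21 at most 2 in any library, and Pdgfra ranged from 10.2 to 36.9 CPM over the group means. The part of such cells in the Tbx4 values was not tested.

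Tbx5, the close relative of Tbx4, was barely present. It had 3, 4 and 2 counts in control myotubes, 2, 0 and 0 in control myoblasts, 1, 0 and 0 in knockout myotubes and 0 in the other groups. Its few counts came mainly from the control myotubes, where its level of 0.0615 CPM is close to the floor. The 3 control myotube libraries stood above the overexpressor and knockout myotube libraries, but nearly all these counts are at or under the floor and Tbx5 was not tested.

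Tbx15 was the T-box gene with the most counts and rose during differentiation in all 3 lines. Control myoblasts held 33.4, 33.8 and 32.9 CPM, overexpressor myoblasts 28.0, 29.8 and 26.9, and knockout myoblasts 65.9, 77.9 and 67.1. Control myotubes held 98.6, 94.1 and 106.6 CPM, overexpressor myotubes 269.7, 263.0 and 337, and knockout myotubes 254.6, 226 and 215. No 2 groups overlapped, and the order from high to low was overexpressor, knockout and control myotubes, then knockout, control and overexpressor myoblasts.

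Differentiation raised Tbx15 2.99-fold in the control (log2 fold change 1.58, SE 0.10, edgeR adjusted p = 6.35e-11), 3.30-fold in the knockout (1.72, SE 0.09, edgeR adjusted p = 5.22e-11) and 10.3-fold in the overexpressor (3.36, SE 0.10, edgeR adjusted p = 7.14e-15). The overexpressor response exceeded the control response by 1.78 on the log2 scale (SE 0.13, edgeR adjusted p = 5.99e-09). Overexpressor myotubes held 2.91-fold more Tbx15 than control myotubes (log2 fold change 1.54, SE 0.09, edgeR adjusted p = 1.16e-10). Overexpressor myoblasts differed from control myoblasts by -0.24 (SE 0.09, edgeR adjusted p = 0.0522), which passed under other settings, for example with DESeq2 size factors (adjusted p = 0.0319). The knockout line held 2.11-fold more Tbx15 than the control in myoblasts (log2 fold change 1.08, SE 0.09) and 2.32-fold more in myotubes (1.22, SE 0.09).

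Tbx18 rose with differentiation in the overexpressor line and fell in the knockout line. Control myoblasts held 34.4, 33.5 and 32.1 CPM, overexpressor myoblasts 20.8, 20.9 and 18.5, and knockout myoblasts 45.0, 47.1 and 44.8. Control myotubes held 34.3, 31.2 and 35.6 CPM, overexpressor myotubes 51.7, 54.4 and 70.9, and knockout myotubes 31.0, 26.8 and 21.5. The control groups overlapped, the overexpressor myotubes stood above all other groups, and the overexpressor myoblasts stood below them all.

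Differentiation raised Tbx18 2.94-fold in the overexpressor (log2 fold change 1.55, SE 0.12, edgeR adjusted p = 2.65e-09) and lowered it 1.73-fold in the knockout (-0.79, SE 0.12, edgeR adjusted p = 1.81e-05). In the control the change was 0.02 (SE 0.12, edgeR adjusted p = 0.918), and its sign depended on the scaling (-0.0125 with DESeq2 size factors, -0.23 with library totals). The overexpressor response exceeded the control response by 1.54 on the log2 scale (SE 0.17, edgeR adjusted p = 9.04e-07). Against the control, Tbx18 fell in overexpressor myoblasts (-0.73, SE 0.12, edgeR adjusted p = 8.29e-05) and rose in overexpressor myotubes (0.81, SE 0.12, edgeR adjusted p = 1.27e-05). In the knockout it differed from the control by 0.45 in myoblasts and by -0.35 in myotubes (SE 0.12 for each).

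A list of 3 smooth muscle markers (Acta2, Myh11 and Cnn1) was, like Tbx18, lowest among the myoblasts in the overexpressor and highest in the knockout, and was higher in overexpressor myotubes than in overexpressor myoblasts. Unlike Tbx18, it was also high in knockout myotubes and lower in control myotubes than in control myoblasts. Its sum ranged over 3819 to 3937 CPM in control, 1305 to 1575 in overexpressor and 6855 to 7088 in knockout myoblasts. The corresponding myotube ranges were 1750 to 2101, 4479 to 5774 and 6744 to 7722 CPM. Nearly all of it was Acta2, an actin gene that immature muscle cells also express, whereas the smooth muscle myosin gene Myh11 had at most 14 counts in any library. The 5 myoblast markers summed to 1397 to 1551, 2759 to 3335 and 3440 to 3915 CPM in control, overexpressor and knockout myoblasts, and to 2585 to 2709, 5601 to 6792 and 7851 to 10435 CPM in the corresponding myotubes. The part of these markers in the T-box values was not tested.

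**Figure D1:**
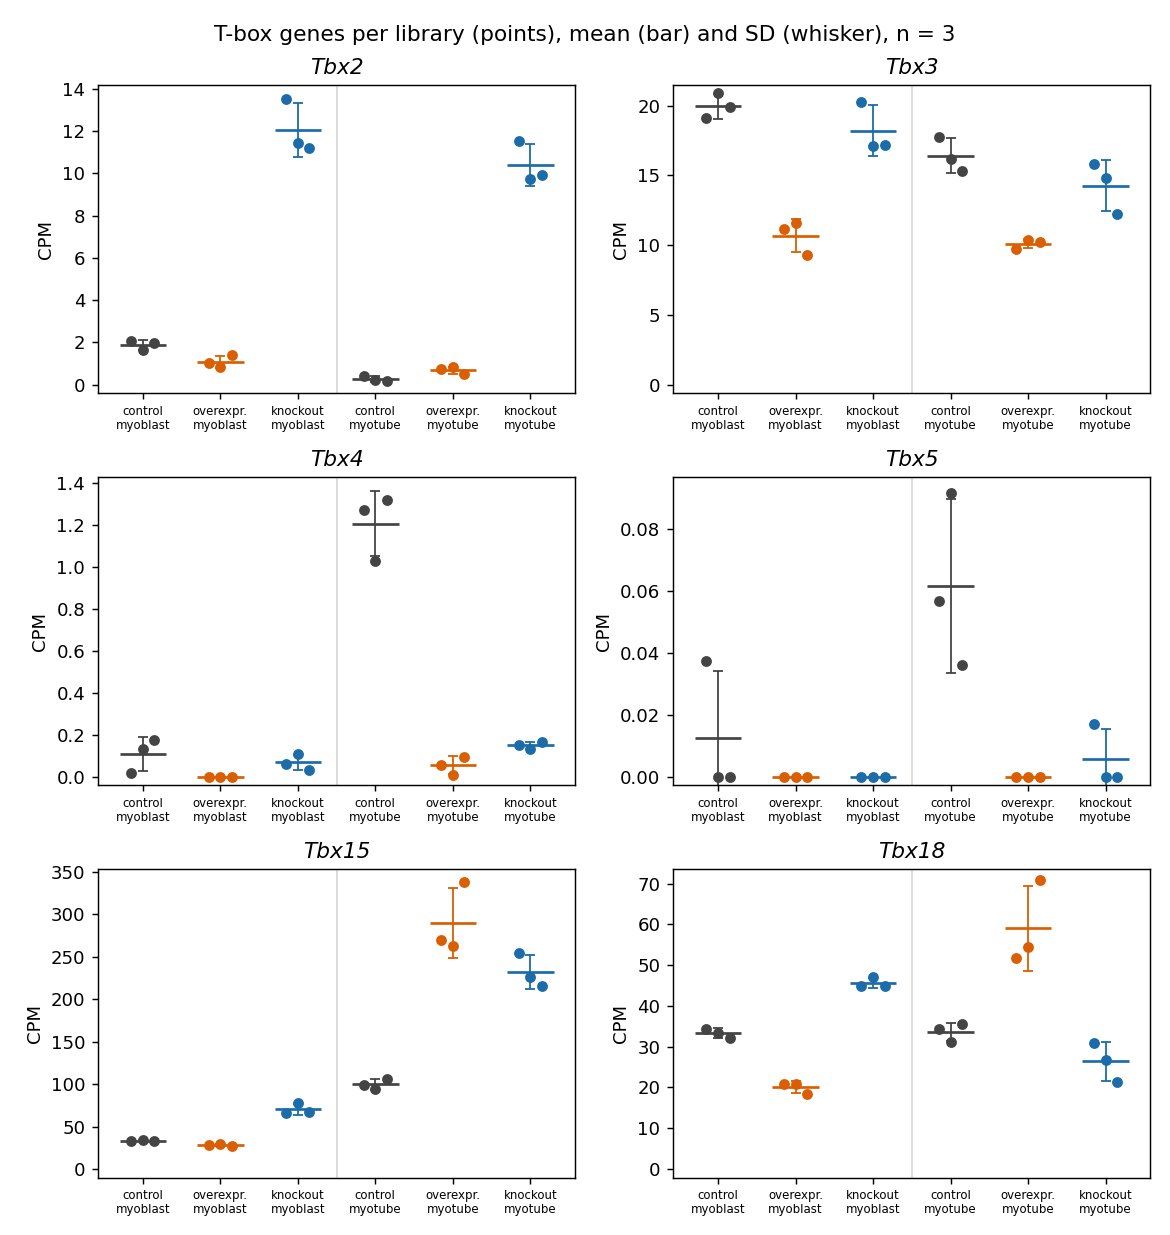
Level of each T-box gene (CPM, linear axes that differ between panels) in every library, with points for libraries, bars for means and whiskers for the SD of 3 libraries, in control (grey), overexpressor (orange) and knockout (blue) cells. The knockout libraries stand apart for Tbx2 (means of 12.1 and 10.4 CPM), the control myotubes for Tbx4 (1.21 CPM) and the overexpressor myotubes for Tbx15 (290.04 CPM).

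Among the 4 tested genes other than Tbx4, Tbx2, Tbx3 and Tbx18 fell in overexpressor myoblasts against control myoblasts, and none rose. Over all 17912 genes tested, 40.4% passed in this comparison and 19.7% passed as lower. In myotubes all 4 passed, with Tbx2, Tbx15 and Tbx18 higher and Tbx3 lower, where 57.1% of all genes passed. Both mutant lines were compared with the same control libraries, so the 2 sets of values are not independent of each other.

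During differentiation 3 of these 4 genes passed in the control line, with Tbx15 higher and Tbx2 and Tbx3 lower, where 62.8% of all genes passed. In the overexpressor 3 passed, with Tbx15 and Tbx18 higher and Tbx2 lower, and 62.8% of all genes passed there too. In the knockout 3 passed, with Tbx15 higher and Tbx3 and Tbx18 lower, where 65.4% of all genes passed. The response differed between overexpressor and control for 3 genes, all with a higher value in the overexpressor, where 39.0% of all genes passed and 16.6% passed as higher.

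For knockout against control, 53.0% of all genes passed in myoblasts and 68.0% in myotubes. The groups did not overlap for 3 of the 5 genes in myoblasts (Tbx2, Tbx15 and Tbx18) and for 4 of the 5 in myotubes (these and Tbx4), against 68.7% and 71.0% of all genes. Because the genes were chosen on this comparison, nothing is read from these counts.

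**Figure D2:**
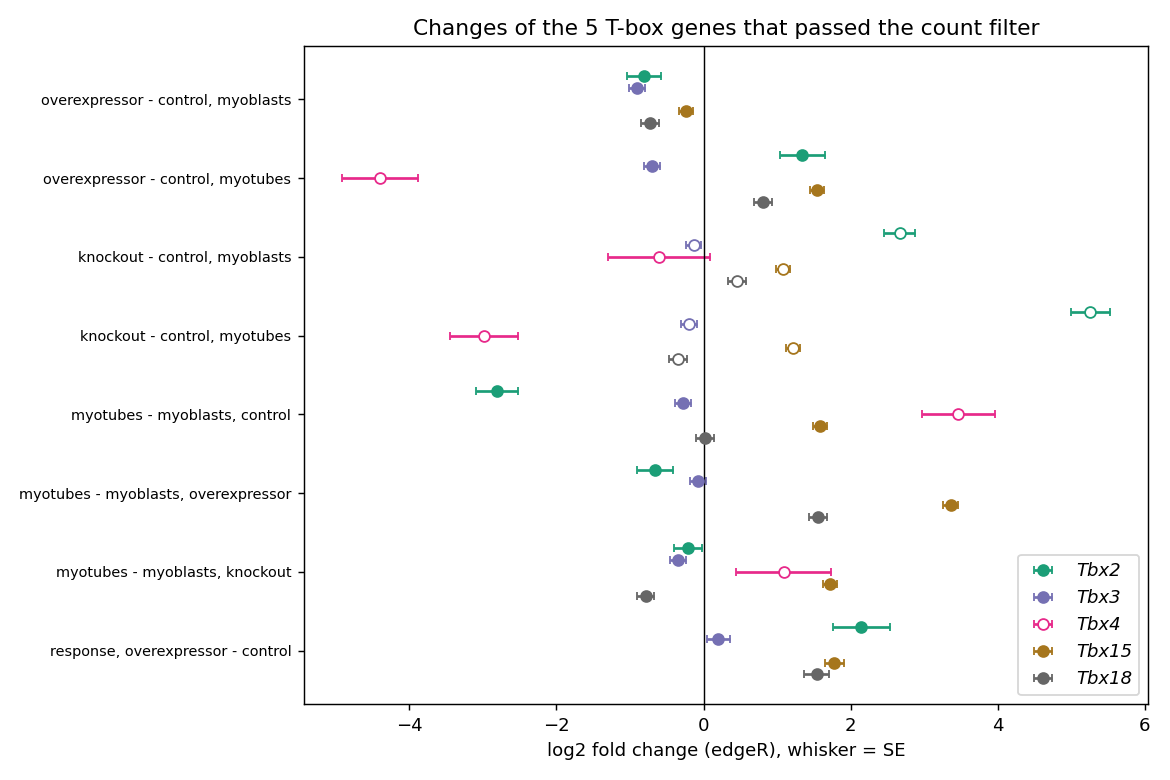
Log2 fold change (points) and SE (whiskers) of the 5 T-box genes that passed the count filter in each comparison, from edgeR; open circles are the knockout comparisons and all Tbx4 values, which are described without a test. Tbx4 is left out of the 3 comparisons in which it rests on overexpressor myoblasts with 0 counts. Tbx2 spans -2.80 (control differentiation) to 5.26 (knockout against control myotubes), and Tbx15 reaches 3.36 in overexpressor differentiation.

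Levels of different genes were compared per exon length (FPKM). Over all 17 mouse T-box genes, control, overexpressor and knockout myoblasts summed to 31.3 ± 0.123, 16.3 ± 1.31 and 39.5 ± 1.64 FPKM (SD, n = 3). The corresponding myotubes summed to 47.2 ± 2.16, 94.6 ± 13.9 and 79.8 ± 6.92 FPKM (SD, n = 3). Tbx15 made up 28.4% of the control myoblast sum and 56.4% of the control myotube sum. Its share was 46.4% and 81.9% in overexpressor myoblasts and myotubes, and 47.5% and 77.5% in the knockout. Tbx18 supplied 22.5% of the control myoblast sum, and 15.1%, 13.2% and 6.98% of the sum in control, overexpressor and knockout myotubes. Tbx2 went from 1.67% in control myoblasts to 8.44% in knockout myoblasts, where it was at 3.32 FPKM and Tbx3 at 2.75 FPKM. These levels rest on union exon lengths of 3626 bases for Tbx2 and 6624 for Tbx3. The Tbx3 transcript used above for the coding stretch has 4856 bases, so the order of these genes may depend on the length used.

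**Figure D3:**
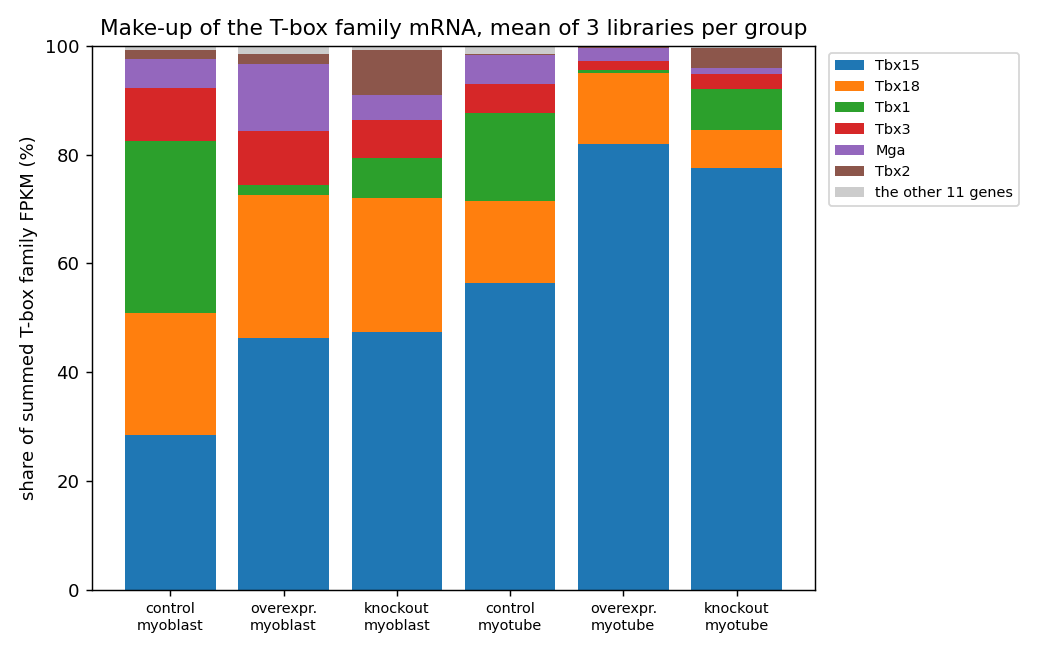
Share of the summed T-box family FPKM (percent, mean of 3 libraries) taken by each gene in the 6 groups. Tbx15 takes the widest band in every group except control myoblasts, where Tbx1 takes 31.6%, and that band is 81.9% of the sum in overexpressor myotubes.

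Of the 11 other T-box genes, 3 passed the filter: Tbx1, known from the pharyngeal arches and their muscles, Tbx6, known from somites, and Mga, a large factor that binds MAX. Tbx1 was lower in overexpressor than in control myoblasts by 5.01 on the log2 scale (log2 fold change -5.01, SE 0.24, edgeR adjusted p = 3.46e-11). Control, overexpressor and knockout myoblasts held 34.9 ± 1.30, 1.08 ± 0.314 and 10.3 ± 0.768 CPM of it (SD, n = 3). For myotubes the Tbx1 levels were 26.8 ± 1.10, 1.40 ± 0.641 and 21.3 ± 1.82 CPM in the same order (SD, n = 3). Tbx1 fell in overexpressor myotubes (-4.27, SE 0.22, edgeR adjusted p = 5.44e-11) and in knockout myoblasts (-1.77, SE 0.19, edgeR adjusted p = 7.39e-07), and Mga fell in knockout myotubes (-1.51, SE 0.26, edgeR adjusted p = 0.000127). In each of the 4 comparisons of a mutant with the control 1 of the 3 tested genes passed, beside 40.4% to 68.0% of all genes, and the medians ran from -0.84 to 0.07.

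Fgf10, the limb growth factor that TBX4 and TBX5 are known to activate, was like Tbx4 highest in control myotubes. It was at 27.7 ± 3.80 CPM in control myotubes, 8.15 ± 0.578 in control myoblasts and at most 1.86 ± 0.209 in any mutant group (SD, n = 3). In myotubes it fell by 6.91 on the log2 scale in the overexpressor (log2 fold change -6.91, SE 0.21, edgeR adjusted p = 1.15e-14) and by 5.54 in the knockout (-5.54, SE 0.19, edgeR adjusted p = 5.39e-14). Differentiation raised Fgf10 in the control (1.76, SE 0.15, edgeR adjusted p = 8.52e-09) and lowered it in the knockout (-1.64, SE 0.20, edgeR adjusted p = 1.13e-06). Any part of Tbx4 or Tbx5 in the Fgf10 values was not tested.

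Fgf10 belongs to a list of 20 limb and mesoderm factors, of which 11 passed the filter and 9, among them the hindlimb factor gene Pitx1 with at most 1 count, did not. Against the control, 7 of the 11 fell and 2 rose in overexpressor myoblasts (median log2 fold change -0.41), and 10 fell and none rose in overexpressor myotubes (median -1.07). In the knockout, 9 fell and none rose in myoblasts (median -0.77) and in myotubes (median -0.97). Over all genes, 40.4% and 57.1% passed in overexpressor myoblasts and myotubes and 53.0% and 68.0% in knockout myoblasts and myotubes, with medians of 0.02, -0.04, 0.02 and -0.07. Shox2, a limb homeobox gene, went from 56.2 ± 5.59 CPM in control myotubes to 20.3 ± 3.98 in overexpressor and 15.7 ± 1.27 in knockout myotubes (SD, n = 3). Meis2, a homeobox cofactor, was 41.3 ± 2.11 CPM in control myoblasts and rose to 102.9 ± 9.96 in overexpressor myoblasts (SD, n = 3), 2.49-fold higher (edgeR adjusted p = 7.62e-08). Prrx1, a limb mesenchyme homeobox gene, fell in knockout myotubes (-1.63, SE 0.13, edgeR adjusted p = 9.49e-09). During differentiation 7 of the 11 fell in the control, where Fgf10 alone rose, 11 fell in the overexpressor and 9 fell in the knockout, beside 62.8%, 62.8% and 65.4% of all genes that passed in either direction.

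A list of 12 reported T-box target genes, 10 of them tested, did not move in a single direction. Of the 10, 2 rose and 5 fell in overexpressor myoblasts, 3 rose and 4 fell in overexpressor myotubes, 1 rose and 4 fell in knockout myoblasts, and 2 rose and 6 fell in knockout myotubes. The medians were -0.52, -0.07, -0.11 and -1.73 in that order, and the shares of all genes that passed were 40.4%, 57.1%, 53.0% and 68.0%. Nppb passed the filter only through overexpressor libraries and is included in the counts and medians of this list. Cdkn1a, the cell cycle inhibitor gene that TBX2 is known to repress, was higher in knockout myoblasts, where Tbx2 was also high. Control and knockout myoblasts held 237 ± 19.5 and 1564 ± 107.9 CPM (SD, n = 3), which differ by 2.72 on the log2 scale (SE 0.11, edgeR adjusted p = 4.38e-13). It was 2362 ± 172 CPM in control myotubes and 4521 ± 559 in knockout myotubes (SD, n = 3). The summed myotube markers were also higher in knockout myoblasts (6668 to 8354 against 232 to 328 CPM in control myoblasts), and their part in the Cdkn1a values was not tested.

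Ndrg1, a stress-response gene that TBX2 is also known to repress, was lower in the knockout. It was 202 ± 6.20 CPM in control and 53.4 ± 2.07 in knockout myoblasts, and 397 ± 14.1 in control and 39.9 ± 0.996 in knockout myotubes (SD, n = 3). The log2 fold changes were -1.92 in myoblasts (SE 0.07, edgeR adjusted p = 2.15e-13) and -3.31 in myotubes (SE 0.08, edgeR adjusted p = 2.67e-16). Any part of Tbx2 in the Ndrg1 values was not tested. Gja1 and Gja5, the gap junction genes of the list, were highest in control myotubes, with 319 ± 61.8 and 16.0 ± 1.22 CPM, and were at 43.6 ± 6.44 and 2.58 ± 0.172 CPM in knockout myotubes (SD, n = 3). Nppb, a natriuretic peptide gene, was found in the overexpressor, at 34 to 94 counts per library, and reached no more than 4 counts elsewhere.

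Of 18 cofactors known to act with T-box proteins, 16 were tested. In the overexpressor, 3 rose and 4 fell in myoblasts, and 8 rose and 5 fell in myotubes. In the knockout, 9 rose and 4 fell in myoblasts, and 6 rose and 4 fell in myotubes. The medians were 0.06, 0.15, 0.35 and 0.00111 in that order, where 40.4%, 57.1%, 53.0% and 68.0% of all genes passed. Nkx2-5, a heart homeobox factor that binds TBX5, reached 2.38 ± 0.278, 6.78 ± 1.03 and 14.3 ± 1.95 CPM in the myotubes of the control, overexpressor and knockout lines (SD, n = 3). It rose in overexpressor myotubes (log2 fold change 1.51, SE 0.15, edgeR adjusted p = 1.27e-07) and in knockout myotubes (2.59, SE 0.16, edgeR adjusted p = 8.64e-11). Ripply1, which turns T-box factors into repressors, had 1 to 3 counts in control myoblasts and 130 to 182 in knockout myoblasts. Tle4, a Groucho corepressor gene, rose in knockout myoblasts (1.86, SE 0.14, edgeR adjusted p = 2.49e-09). Ripply3, of the same family as Ripply1, had 18 to 25 counts in control myoblasts and at most 2 in overexpressor and knockout myoblasts.

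Because Tbx2 and Tbx4 are neighbours with unlike courses, the genes around them were read in the same fit. Within 500 kb of either gene, 17 other genes are annotated and 7 passed the filter. In the knockout against the control, 3 of these 7 rose and 1 fell in myoblasts, and 4 rose and 2 fell in myotubes. In the overexpressor, 1 rose and none fell in myoblasts, and 2 rose and 1 fell in myotubes. The shares of all genes that passed were 53.0% and 68.0% in the knockout and 40.4% and 57.1% in the overexpressor, and nothing particular to the region is read from counts of so few genes. The noncoding gene 2610027K06Rik (chr11:85791661-85832223, minus strand) starts 327 bases before Tbx2 and is transcribed away from it. It had 1 to 7 counts in control myoblasts, 17 to 31 in knockout myoblasts, 1 to 8 in control myotubes and 29 to 36 in knockout myotubes, and at most 5 in the overexpressor. As it passed the filter only through knockout libraries, it is described without a test, although it is among the knockout rises counted above.

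2610027K06Rik was higher in the knockout than in the control by 2.503 on the log2 scale in myoblasts (SE 0.55) and by 2.58 in myotubes (SE 0.52). Whether the counting used strand is not stated in the sources used here, but its annotated span does not overlap Tbx2. Bcas3, a protein-coding gene that ends 6492 bases before Tbx2, rose by 0.46 in knockout myoblasts (SE 0.08, edgeR adjusted p = 9.43e-05), and differed by 0.02 in knockout myotubes (SE 0.08, edgeR adjusted p = 0.873). On the other side of Tbx4, the DNA helicase gene Brip1 rose in knockout myotubes (1.18, SE 0.22, edgeR adjusted p = 0.000157) and the Mediator subunit gene Med13 fell (-0.95, SE 0.23, edgeR adjusted p = 0.00217). Bcas3 also rose in overexpressor myoblasts (0.37, SE 0.08, edgeR adjusted p = 0.00104) but fell in overexpressor myotubes (-0.49, SE 0.08, edgeR adjusted p = 3.49e-05). In overexpressor myotubes Brip1 rose as well (1.34, SE 0.22, edgeR adjusted p = 4.03e-05), and Med13 differed by -0.14 (SE 0.23, edgeR adjusted p = 0.629). Around the other members, 3 of 18 annotated neighbours of Tbx3 and Tbx5, 4 of 25 of Tbx15 and 2 of 11 of Tbx18 were tested. Tbx3os1 overlaps the start of Tbx3 and D030062O11Rik overlaps Tbx18, each on the opposite strand, so their reads and those of the 2 members may not be separable. Both had few counts beside them, at most 12 and 179.

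**Figure D4:**
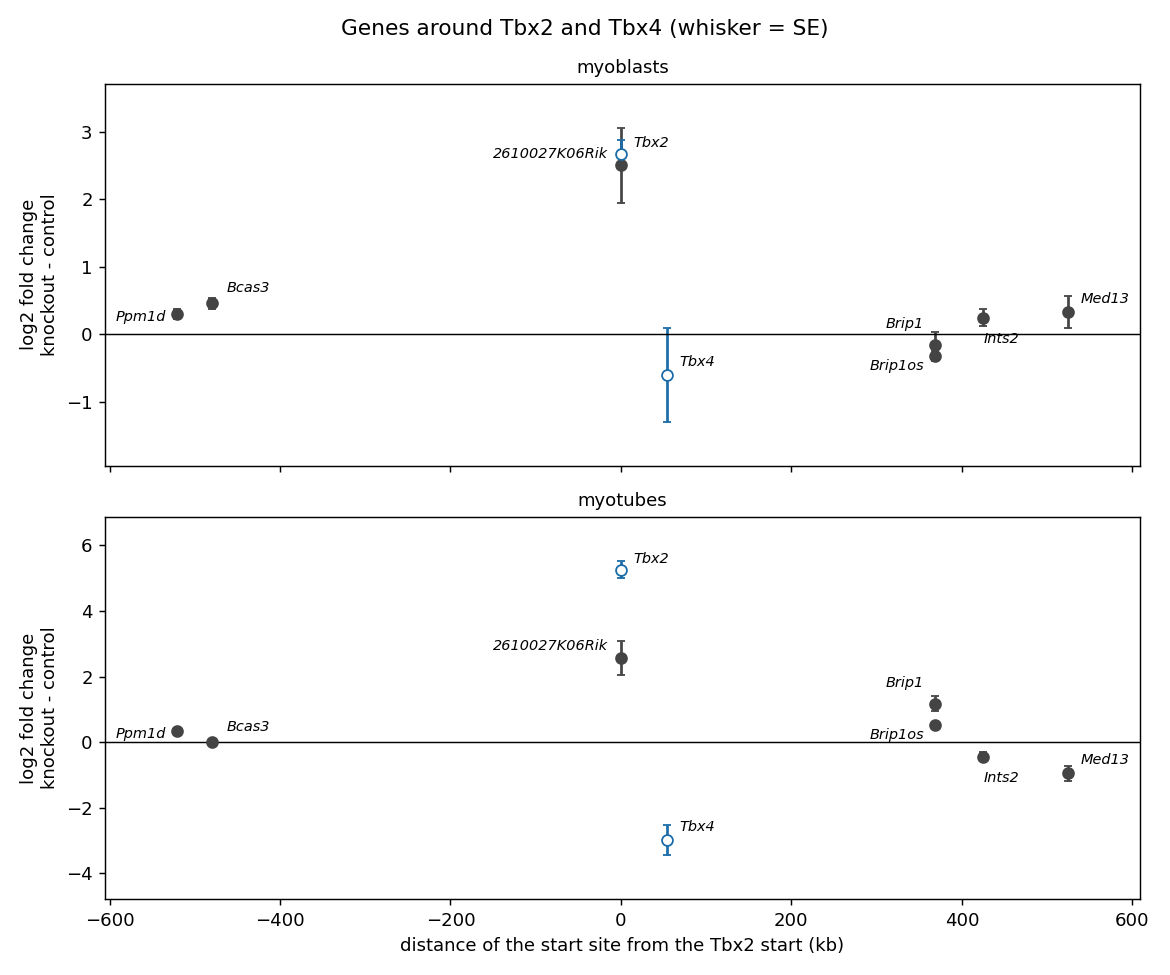
Log2 fold change of knockout against control (vertical axis, whiskers are the SE) for the tested genes around Tbx2 and Tbx4, by distance of the start site from the Tbx2 start in kb (horizontal axis), in myoblasts (top) and myotubes (bottom). Tbx2 and Tbx4 (open circles) and 2610027K06Rik are described without a test. In myotubes Tbx2 is at 5.26, the adjacent 2610027K06Rik at 2.58 and Tbx4 at -2.98.

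RefSeq promoter entries (GRCm38.p6) matched 2 of the 6 genes, Tbx4 and Tbx18. They are shown because they were the only entries found for these genes. The E-box (CANNTG, the same on both strands), the motif bound by MYOD1 and MYOG, is marked. Any part of E-boxes in the course of either gene was not tested. The 250 bases before each start are written 5′ to 3′ on the gene's strand, with E-boxes in capitals, at chr11:85896515-85896764 (plus) for Tbx4 and chr9:87731261-87731510 (minus) for Tbx18.
Tbx4: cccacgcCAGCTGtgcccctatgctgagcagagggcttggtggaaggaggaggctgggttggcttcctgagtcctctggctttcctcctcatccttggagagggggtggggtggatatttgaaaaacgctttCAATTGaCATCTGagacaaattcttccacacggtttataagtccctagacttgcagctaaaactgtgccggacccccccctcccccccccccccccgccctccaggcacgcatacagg
Tbx18: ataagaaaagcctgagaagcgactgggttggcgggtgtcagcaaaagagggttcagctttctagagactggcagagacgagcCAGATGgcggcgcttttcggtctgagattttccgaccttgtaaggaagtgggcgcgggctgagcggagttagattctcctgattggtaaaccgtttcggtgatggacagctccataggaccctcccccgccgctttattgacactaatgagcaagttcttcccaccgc

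The Tbx4 stretch holds 3 E-boxes and the Tbx18 stretch 1. The Tbx4 entry precedes a start site 10343 bases inside the gene, that of 1 annotated transcript, and neither stretch overlaps an annotated exon of its gene. That start lies between exons 3 and 4, inside the span of the Tbx4 coding stretch shown above (chr11:85890908-85898508). Whether that start is used in these cells was not tested. Of 32851 such promoter stretches, 66.2% hold CANNTG, with a median of 1 match per stretch. The share with as many matches as the Tbx4 stretch was not counted. The T-box core GGTGTG, searched on both strands, is in neither stretch and in 16.3% of all. These matches describe the letters only.

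The genes with the course most like each member were found by Pearson correlation of log2 CPM over the 6 group means, among 10761 genes (10762 for Tbx4), and are given as a description because the groups share line and stage. Tbx2 was closest to Nxf3 (0.985) and Ncald (0.983). Tbx3 was closest to Bicc1 (0.982) and Il17rd (0.977), and Tbx4 to Igfbp4 (0.996) and Itgb2 (0.989). Tbx15 was closest to Timm8b (0.993) and Coro6 (0.992), and Tbx18 to Gcnt4 (0.946) and Fgfr1op (0.929). Rankings over 6 means are unstable: over the 18 libraries Timm8b ranked 65 for Tbx15 and Fgfr1op 22 for Tbx18. The other genes named here ranked 1 to 7 over the 18 libraries. Among the members themselves, Tbx2 and Tbx4 had a value of -0.34, Tbx2 and Tbx3 of 0.32, and Tbx15 and Tbx18 of 0.51 over the same 6 groups.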

How the data were processed

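RNA-seq counts of 18 libraries were used as deposited. The authors deposited raw counts per gene and a variance-stabilised table, which was not used. Per the submitters' processing notes the tools were STAR 2.7.9a, featureCounts, Subread 2.0.3, FastQC 0.11.7 and DESeq2 1.32.0, with build mm10 (GRCm38). Strand use and annotation release are not given in the sources used here. Of 55450 gene identifiers, 55190 matched GENCODE vM21, whose union exon lengths gave FPKM.

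Counts were tested in R 4.3.3 with edgeR 4.0.16 (filterByExpr, TMM, robust quasi-likelihood test), in 1 fit over all 18 libraries with 12 residual degrees of freedom and 8 comparisons. P-values were Benjamini-Hochberg adjusted over 17912 genes, with a threshold of 0.05. The method was tested on simulated data. CPM is counts over TMM-scaled library size, and a count of 3 per library is the floor, 0.0375 to 0.0693 CPM. Replicate libraries of a group differed beyond sampling noise (chi-square per degree of freedom of at least 4.55), and each counted once. This spread does not show that they were separate cultures.

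Tbx4, which passed the filter only through control myotubes, and 2610027K06Rik, which passed only through knockout libraries, are described without a test. The 6 genes and the lists (other T-box genes, limb factors, targets, cofactors, cell markers) were chosen with earlier results of these data known. From each list at most 3 called genes with the largest change per comparison could be named. The neighbours named were at most 4, and the genes most alike were the top 2 reaching 5 CPM in some group. Nppb and the pair Tbx3os1 and D030062O11Rik were described by their counts only, although Nppb stays among the tested genes of its list. Alternatives were DESeq2 1.42.0 size factors and its Wald test, library totals, no count filter, a replicate block, only the groups compared, and each library left out. The sequence of Tbx5 is not reported here.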

Additional observations from a re-analysis of the deposited data

Results flagged for a closer look

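The 3 results singled out here are differences between the overexpressor and control lines in how a gene responded to differentiation, each tested as an interaction in edgeR. For Tbx2 the difference was 2.15 on the log2 scale (SE 0.39, adjusted p = 0.000199), as its level went from 1.90 to 0.268 CPM in the control and from 1.09 to 0.685 CPM in the overexpressor. The control libraries of this test also served in the choice of Tbx2. Tbx15 had a difference of 1.78 (SE 0.13, adjusted p = 5.99e-09), with 33.3 to 99.8 CPM in the control and 28.2 to 290.04 CPM in the overexpressor. For Tbx18 the difference was 1.54 (SE 0.17, adjusted p = 9.04e-07), with 33.3 to 33.7 CPM in the control and 20.1 to 59.0 CPM in the overexpressor. In all genes tested, 39.0% passed this interaction test.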

How the results depend on the processing

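Of 717 alternative values for single T-box genes, Tbx4 included, 682 kept direction and side of the threshold, 14 lost the call, 12 gained it and 9 reversed. The Tbx4 part of these counts, here and below, is a description only and nothing is read from it. Tbx4 was chosen on these data and passed the filter only through control myotubes. The reversals concerned values near 0: Tbx18 in control differentiation went to -0.0125 (DESeq2 size factors), -0.0124 (DESeq2 Wald test), -0.23 (library totals), -0.0505 (only the groups compared), and ranged from -0.0521 to 0.0688 with 1 library left out, and Tbx3 in overexpressor differentiation went to 0.00357 (DESeq2 size factors) and 0.00317 (Wald test). The number of T-box genes past the threshold in overexpressor differentiation, 4 with Tbx4 included, was 2 with only the groups compared, and 2 to 4 with 1 library left out, 2 being without overexpressor myotube library C. In knockout against control myotubes, Tbx15 was 1.35 with DESeq2 size factors or the Wald test, and Tbx2 ranged from 4.97 to 5.82 with 1 library left out, the latter without control myotube library A. Among the other T-box genes, the number passing was 1 for the difference of responses with DESeq2 size factors, library totals or the Wald test. For control differentiation it was 1 with library totals or no filter and 2 with the Wald test. With no filter it was 2 in overexpressor myotubes, 2 in knockout myoblasts and 3 in knockout myotubes. With library totals the median over all genes moved to -0.17 in control and -0.24 in knockout differentiation, to 0.11 in overexpressor myotubes and to 0.14 for the difference of responses. The replicate block changed no call; for example, Tbx2 in overexpressor myotubes was 1.36 with the block. Libraries of the same letter did not vary together more than others. Their correlations ran from -0.92 to 0.76 (median -0.10, 15 of 45 pairs over 0.1), against -0.87 to 0.89 for different letters (median 0.07, 42 of 90 pairs). With 3 libraries per group, this cannot exclude that the letters pair samples. Depth limits Tbx4 outside control myotubes, and Tbx5 throughout.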
